A study of Mus musculus with 7 samples.

Results

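The genes described here are 10 genes of fibroblast matrix, surface and caveolae that were read across a differentiation of mouse embryonic stem cells: Fn1, Fbn1, Postn, Lox, Dcn, Lum, Thy1, Cav1, Sdpr and Ptgs2. They are 10 of the 30487 genes in the deposited table and 10 of the 21813 that were tested. They were picked by name as genes lost after day 0, with their values in these libraries in view, so differences from day 0 are given as a description without a test. The label given to them does not hold for every gene: Dcn and Lum were about as high on day 2 as on day 0.

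Messenger RNA was sequenced in 7 libraries of one line, called Bry-GFP in the labels, with 2 biological replicates each on days 0, 2 and 4 and 1 on day 6. On day 0 the stem cells were kept on mouse embryonic feeder cells with 15% serum and LIF at 1000 U/mL. For the first step they were freed from the feeders with trypsin and cultured, at 75000 cells per mL, in serum-free suspension up to day 2. Days 2 to 4 added Noggin (150 ng/mL), Wnt3a (25 ng/mL) and Activin A (9 ng/mL), and days 4 to 6 replaced these with basic FGF (10 ng/mL). The sources used here do not give whether feeder cells were still present when the day 0 RNA was taken, nor the sex of the feeders. No feeder library and no feeder-free day 0 library was analysed here. All 10 fixed markers of pluripotent stem cells were above the level of 3 reads in all 7 libraries, and Pou5f1, the Oct4 gene, stood at 11.34 and 11.40 on day 0.

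Levels are log2 of 1 plus scaled reads. Rough depth was 2840000 to 5690000 reads per library, and the level that 3 reads give was 1.44 to 2.29, so differences below it cannot be read. RNA came from bulk cultures, where fewer cells of a type and less RNA per cell cannot be told apart. The table was made alike in distribution across libraries before deposit, so a share of a gene's day 0 level is a share on that scale and not of RNA molecules. The median of 11800 well-measured genes moved by 0.14 from day 0 to day 2.

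Fibroblasts build and remodel the extracellular matrix. Fibronectin, made from Fn1, is assembled into fibrils at the cell surface, fibrillin from Fbn1 forms microfibrils, and lysyl oxidase from Lox joins collagen and elastin chains by covalent bonds. Decorin and lumican, made from Dcn and Lum, are small proteoglycans that bind collagen fibrils. Caveolae are small pits of the plasma membrane built from caveolins, such as the product of Cav1, and cavins, such as that of Sdpr (now named Cavin2). Feeder layers for stem cells are usually fibroblasts whose division has been blocked, and they supply matrix and cytokines.

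The start regions of 4 of these genes are shown, from Postn, which kept 8.09% of its day 0 level on day 2, to Sdpr and Ptgs2, which were among the most reduced. Each is the 250 bases before the start site in RefSeq on GRCm38.p6, 5′ to 3′ on the gene's strand, with capitals marking TATAAA on either strand.
Postn (chr3:54360857-54361106, plus strand): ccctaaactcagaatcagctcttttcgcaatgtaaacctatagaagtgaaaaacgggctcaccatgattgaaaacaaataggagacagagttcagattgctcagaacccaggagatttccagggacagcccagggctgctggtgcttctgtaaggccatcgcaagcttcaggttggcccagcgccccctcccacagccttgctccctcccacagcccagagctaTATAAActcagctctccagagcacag
Cav1 (chr6:17306085-17306334, plus strand): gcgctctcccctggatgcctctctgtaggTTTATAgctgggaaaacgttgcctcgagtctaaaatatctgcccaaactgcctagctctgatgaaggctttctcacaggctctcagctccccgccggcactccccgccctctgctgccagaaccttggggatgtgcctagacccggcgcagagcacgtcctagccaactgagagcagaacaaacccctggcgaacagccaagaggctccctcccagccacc
Sdpr (chr1:51288876-51289125, plus strand): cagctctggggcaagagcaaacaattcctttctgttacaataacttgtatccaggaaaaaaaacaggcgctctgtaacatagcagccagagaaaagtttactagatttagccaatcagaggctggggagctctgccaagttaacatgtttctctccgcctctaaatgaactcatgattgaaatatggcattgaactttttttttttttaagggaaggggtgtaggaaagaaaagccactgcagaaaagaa
Ptgs2 (chr1:150099781-150100030, plus strand): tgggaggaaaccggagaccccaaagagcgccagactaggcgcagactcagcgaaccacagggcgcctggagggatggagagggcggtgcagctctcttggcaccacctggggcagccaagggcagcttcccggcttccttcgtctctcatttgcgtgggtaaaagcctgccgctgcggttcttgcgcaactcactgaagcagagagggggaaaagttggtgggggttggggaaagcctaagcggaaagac
Start regions were matched for 5 of the 10 genes, these and Fbn1. In Postn, TATAAA (the TATA box) begins 26 bases before the start, at position -26, and in Cav1 it lies on the opposite strand at -221. TATAAA occurred on either strand in 12.4% of 32851 RefSeq windows of this length. TGACTCA and TGAGTCA, the letters of AP-1 sites (4.46% of windows), GGAATG, those of TEAD sites (12.6%), and the CArG box (1.47%) matched none of the 5. The Sdpr window was the poorest in G and C (40.4%) and the Ptgs2 window the richest (61.6%), against a median of 52.4% over all windows.

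Among the matrix scaffold genes, Fn1 was the most abundant. Its levels were 13.87 and 14.08 at day 0, 11.61 and 10.97 at day 2, 10.91 and 10.55 at day 4, then 9.47 at day 6. Each day's libraries were below those of the day before without overlap. Fbn1 was at 10.79 in both day 0 libraries, 8.07 and 7.73 at day 2, 6.17 and 6.4 at day 4, then 6.67 at day 6. Its lowest libraries were those of day 4, with day 6 just above them. Postn, which makes the matricellular protein periostin, went from 10.17 and 9.98 on day 0 to 6.56 and 6.36 on day 2. Day 4 gave 4.12 and 3.73, day 6 gave 4.74. These 3 genes thus kept readable levels to the end, with at least 13 reads in each later library.

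Lox had one of the steepest losses. Its day 0 levels of 10.58 and 10.68 (2316 and 2129 reads) became 2.73 and 3.38 by day 2 (5 and 7 reads), then 1.20 and 1.34 by day 4, with 3.19 in the day 6 library. The day 4 libraries held only 1 and 2 reads of it.

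Dcn and Lum, the small proteoglycan genes among the 10, did not follow this course. Dcn read 7.74 and 6.95 at day 0, then 7.12 and 7.0 at day 2, with both day 2 values inside the day 0 range. Day 4 followed with 3.98 and 3.08, and day 6 with 4.95. Lum read 5.0 and 3.98 at day 0, then 3.89 and 4.34 at day 2, again with overlapping days. On day 4 it was at 2.30 and listed at 0, and on day 6 it was at 4.55 (20 reads), inside its day 0 range. Read numbers for Lum were small throughout, from 47 on day 0 down to 0. Dcn and Lum are neighbours on chromosome 10 on the plus strand, 47.0 kb apart with 0 annotated genes between them (Dcn from 97479609 to 97518143, Lum from 97565128 to 97572703, GRCm38).

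Thy1, a surface glycoprotein of fibroblasts that neurons also carry, read 8.86 and 9.03 at day 0, then 4.87 and 5.10 at day 2. Its day 4 libraries disagreed, at 4.66 and 6.12, and straddled the day 2 values. On day 6 it was at 4.06. Neuron genes were present in the same libraries, with a summed level (log2) of 10.53 and 10.43 at day 0, where Stmn2 alone stood at 9.92 and 9.63. The sum was 9.98 and 10.08 at day 2, 11.92 and 10.83 at day 4, then 12.61 at day 6. The part of neurons in the Thy1 level was not tested.

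Of the caveola genes, Cav1 went from 9.81 and 10.10 on day 0 to 5.22 and 5.05 on day 2 and to 2.64 and 1.34 on day 4, with 2.95 on day 6. Only 4 and 2 reads were left on day 4. Sdpr went from 8.87 and 9.11 to 1.08 and 1.09 by day 2, had neither day 4 library above 0 and read 2.14 at day 6. That is 705 and 716 reads on day 0, 1 read in each day 2 library and 3 reads on day 6. Ptgs2, the inducible cyclooxygenase that starts prostaglandin synthesis, went from 9.93 and 9.46 to 1.08 and 2.64 by day 2, then 1.83 and 0.86 by day 4, with 1.10 in the day 6 library. After day 0 no library held more than 4 reads of it.

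**Figure D1:**
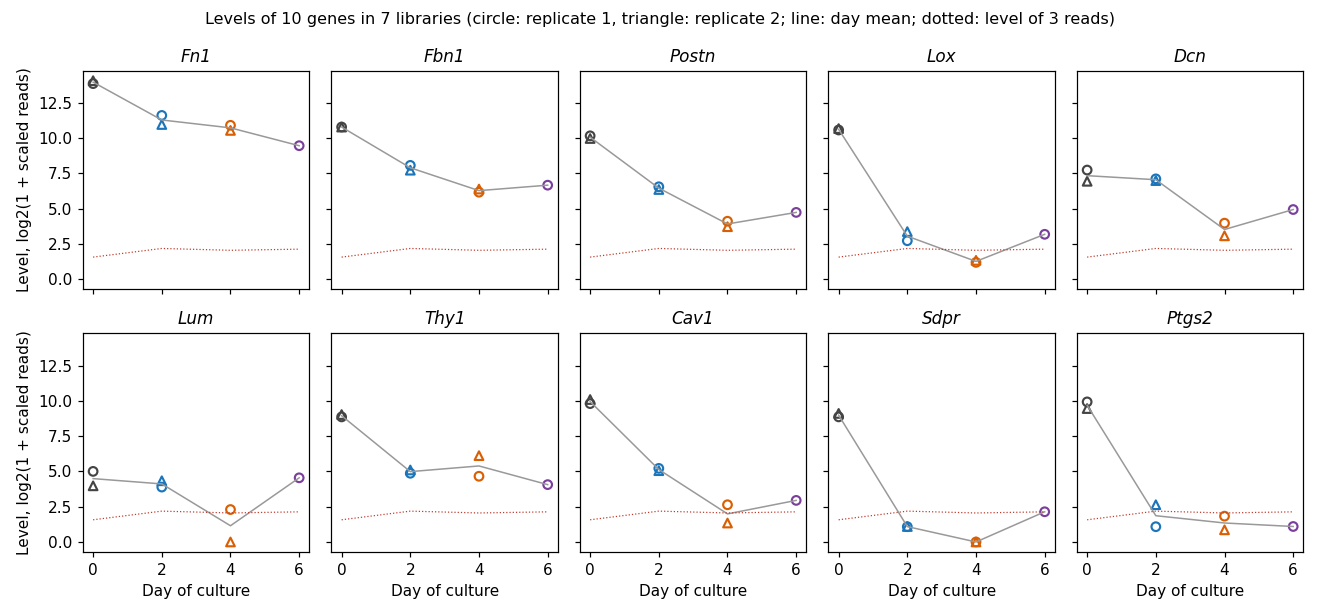
Level of each of the 10 genes (log2 of 1 plus scaled reads) against day of culture, with circles for replicate 1, triangles for replicate 2, a grey line through the day means and a dotted line at the level of 3 reads. Lox, Sdpr and Ptgs2 drop to near the dotted line by day 2, while Dcn (7.12 and 7.0) and Lum (3.89 and 4.34) are still at their day 0 levels.

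Divided by exon length, Fn1 led on day 0 at 10.43 (log2 of scaled reads per kb), followed by Lox (8.38) and Cav1 (8.17). Ptgs2 (7.51), Sdpr (7.38), Thy1 (7.37), Fbn1 (7.19) and Postn (6.95) formed a close middle group whose neighbours differed by no more than the spread between replicates of Ptgs2 (SD 0.33, n = 2). Dcn (4.85) and Lum (3.23) were lowest per length on day 0.

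A single factor by which all of these genes were reduced would leave each at the same share of its day 0 level in a given library. The shares on day 2 differed widely. As means of 2 libraries they were 78.9% for Dcn, 72.2% for Lum, 15.9% for Fn1, 13.6% for Fbn1, 8.09% for Postn, 6.24% for Thy1, 3.44% for Cav1, 0.475% for Lox, 0.379% for Ptgs2 and 0.221% for Sdpr. Among the 8 genes above the level of 3 reads in both day 2 libraries, the share of Dcn was 166 times that of Lox. That ratio was 126 or 244 without day 0 replicate 2 or 1.

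The lowest shares rest on few reads. Lox had 12 reads over both day 2 libraries, and its share has a 95% Poisson interval, which covers counting error only, of 0.245% to 0.829%. The interval for Ptgs2, with 5 reads, is 0.123% to 0.884%, and that for Sdpr, with 2 reads, is 0.0268% to 0.799%. The 3 intervals overlap, so the order among these genes is not readable at this depth. All of them lie below the Cav1 share in each day 2 library (3.64% and 3.24%).

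**Figure D2:**
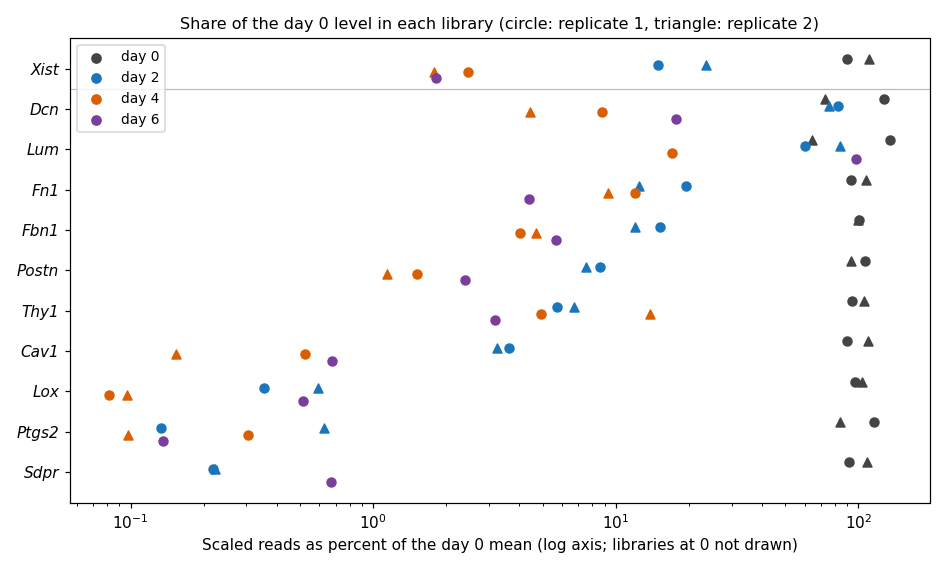
Scaled reads of each gene in each library as a percent of its day 0 mean, on a log axis, with colour for the day and symbol for the replicate, and Xist above the line for comparison. Day 2 points (blue) spread from 0.133% for Ptgs2 to 84.0% for Lum, with day 2 replicates farthest apart for Ptgs2.

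The spread between genes was larger than that between replicates. On the log2 scale the day 2 levels minus the day 0 means had a median of -3.79 over the 10 genes (0.05 over all genes tested) and an SD of 2.85 between genes, beside a replicate SD of 0.38 for the same genes on days 0 and 2. When each gene's difference was taken between single libraries, the ranges fell into 5 sets that did not overlap. With 2 libraries on each of these days, the sets describe these libraries and do not mark classes of genes. Lum and Dcn formed the first set, from 0.36 to -1.11. Fn1 and Fbn1 formed the second, from -2.26 to -3.11, and Postn and Thy1 the third, from -3.42 to -4.16. Cav1 stood alone at -4.59 to -5.04, and Ptgs2, Lox and Sdpr ran from -6.82 to -8.85. In 8 of the 10 genes both day 2 libraries were below both day 0 libraries, as in 21.6% of all genes tested, a count that the choice of genes largely fixes. The differences of Dcn (-0.29) and Lum (-0.38) turned positive without day 0 replicate 1 (0.11 and 0.14).

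The same comparison within a library shows the reordering. Dcn was below Lox by a level difference of -2.84 and -3.73 on day 0 and above it by 4.39 and 3.62 on day 2. Fn1 stood above Fbn1 by 3.08 and 3.29 on day 0 and by 3.54 and 3.24 on day 2, so this pair kept its distance through the first step. By day 4 that distance was 4.74 and 4.16.

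Xist, whose RNA silences 1 X chromosome in female cells, is a transcript outside the matrix genes, although reads of its antisense partner Tsix cannot be set apart where strand use in counting is unknown. It read 9.33 and 9.63 at day 0, 6.75 and 7.40 at day 2, 4.22 and 3.78 at day 4, then 3.81 at day 6. Its share of the day 0 level was 19.2% on day 2 and 2.11% on day 4. On day 2 that is near Fn1 and Fbn1, far above Lox and far below Dcn. By limma, Xist fell by 2.40 from day 0 to day 2 (SE 0.30, adjusted p = 0.00516). Y-linked genes, the sign of male cells, were present in every library, with Eif2s3y at 7.97 and 7.36 on day 0 and 8.33 on day 6. Of the 4 Y-linked genes read, Kdm5d fell by 1.54 at this step (limma adjusted p = 0.0457), and Ddx3y, Eif2s3y and Uty did not pass. The Kdm5d call did not survive leaving out any 1 library of days 0, 2 or 4, nor did it hold with the replicate block, without robust moderation or without a trend. That of Xist was kept without day 2 replicate 2 but lost without any other 1 of these libraries (limma adjusted p from 0.0474 to 0.158).

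Genes of the same structures that are not among the 10 were read from fixed lists at this first step, where limma called 6.2% of all genes tested lower and 5.76% higher. Without day 4 replicate 1, limma called 0 genes at this step (5502 had an unadjusted p under 0.05), which covers every call named at this step. The lists were also chosen with earlier results known. Of 18 further feeder fibroblast genes, 16 fell and 0 rose, with a median of -3.68. Acta2, the smooth muscle actin also found in activated fibroblasts, fell by 8.01 (SE 0.42, limma adjusted p = 0.000513) and was left at 0.379% of its day 0 level. S100a4 fell by 6.28, and Col1a1, a fibrillar collagen chain, fell by 4.85 (SE 0.45, limma adjusted p = 0.0021) to a share of 3.59%. Col6a3, a chain of microfibrillar collagen VI, fell by 1.77 (limma adjusted p = 0.0303) to 30.3%. Twist1 (-0.99) and Fap (-0.65) did not pass. The changes of these feeder genes thus ran from -8.01 to -0.65, beside -7.90 to -0.29 for the 10 genes.

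Collagen-processing genes were lower as well, with 11 of 15 beyond Lox down and 0 up, and a median of -2.37. All 4 other lysyl oxidase genes fell, Loxl1 by 3.98, Loxl3 by 3.85, Loxl4 by 3.67 and Loxl2 by 3.59, each less than the difference of Lox (-7.58). Plod2 (-0.66), P4ha2 (-0.97) and Pcolce2 (-1.09) did not pass. Of 9 further small proteoglycan genes, 4 fell and 0 rose (median -2.53). Bgn, which makes biglycan, the closest relative of decorin, fell by 5.99 (SE 0.26, limma adjusted p = 0.000496), from 12.04 and 12.70 to 6.22 and 6.54. Ogn fell by 4.81, Aspn fell by 4.67, and Fmod went from 3.99 and 4.77 to a listed 0 in each library of day 2. Podn (-2.53), Prelp (-0.52), Omd (-0.31), Chad (-0.20) and Kera (0.98) did not pass. Of these, Prelp, Omd, Chad and Kera had at most 11 reads in a day 0 library. Beside the 4 that fell, Dcn and Lum kept 78.9% and 72.2% of their day 0 levels.

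Microfibril and elastic fibre genes were 9 of 15 down and 0 up (median -2.18). Fbln2 fell by 6.20, Fbln5, a fibulin of elastic fibres, fell by 5.69, and Efemp1 fell by 2.20. Fbn2, the second fibrillin gene, read 6.19 and 5.90 at day 0, then 7.62 and 6.78 at day 2 (log2 1.15, SE 0.33, limma adjusted p = 0.0713), a direction opposite to that of Fbn1 that did not pass. Mfap2 (-0.28) and Mfap4 (-0.01), microfibril-associated genes, did not pass either. Every one of 13 further matricellular genes and fibronectin receptors fell (median -2.93). Thbs1, a thrombospondin, fell by 5.93 and Tnc, tenascin C, fell by 5.29, while the smallest change was that of Itgb5 (-1.74). The fibronectin receptor chains Itga5 and Itgb1 fell by 2.24 and 1.96, to 21.3% and 25.9% of their day 0 levels.

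In the caveola list 4 of 9 further genes fell and 0 rose (median -0.71). Ptrf (Cavin1), the cavin that coats every caveola, fell by 4.15 (SE 0.30, limma adjusted p = 0.000985), from 9.68 and 10.13 to 5.47 and 6.04. Prkcdbp (Cavin3) fell by 4.12 to 1 read in each day 2 library, Ehd2, an ATPase of the caveolar neck, fell by 3.95, and Cav2 fell by 3.45. On day 2 the shares of Ptrf, Ehd2 and Cav2 were 5.57%, 6.27% and 8.08%, beside 3.44% for Cav1 and 0.221% for Sdpr. That of Prkcdbp (3.09%) rests on 1 read in each day 2 library, as does that of Sdpr. The shares of Prkcdbp and Sdpr thus cannot be placed in order. Ehd1 (-0.71), Ehd4 (-0.19), Pacsin2 (-0.58), Pacsin3 (0.32) and Murc (-0.66), of which the Ehd and Pacsin genes also act in general membrane traffic, did not pass. Cav3, the muscle caveolin, was listed at 0 in every library. Of the prostaglandin genes, 2 of 15 beyond Ptgs2 fell and 0 rose (median -0.47). Pla2g4a, which frees arachidonic acid, fell by 3.22 and Ptges, the inducible prostaglandin E synthase, fell by 3.02. Ptgs1 (-2.41), Ptgis (-0.32) and Ptges3 (0.41) did not pass. Of 9 fibroblast surface genes beside Thy1, 6 fell and 0 rose (median -1.65), among them Cd44, the hyaluronan receptor, by 4.82, and Pdpn, podoplanin, fell by 0.83.

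**Figure D3:**
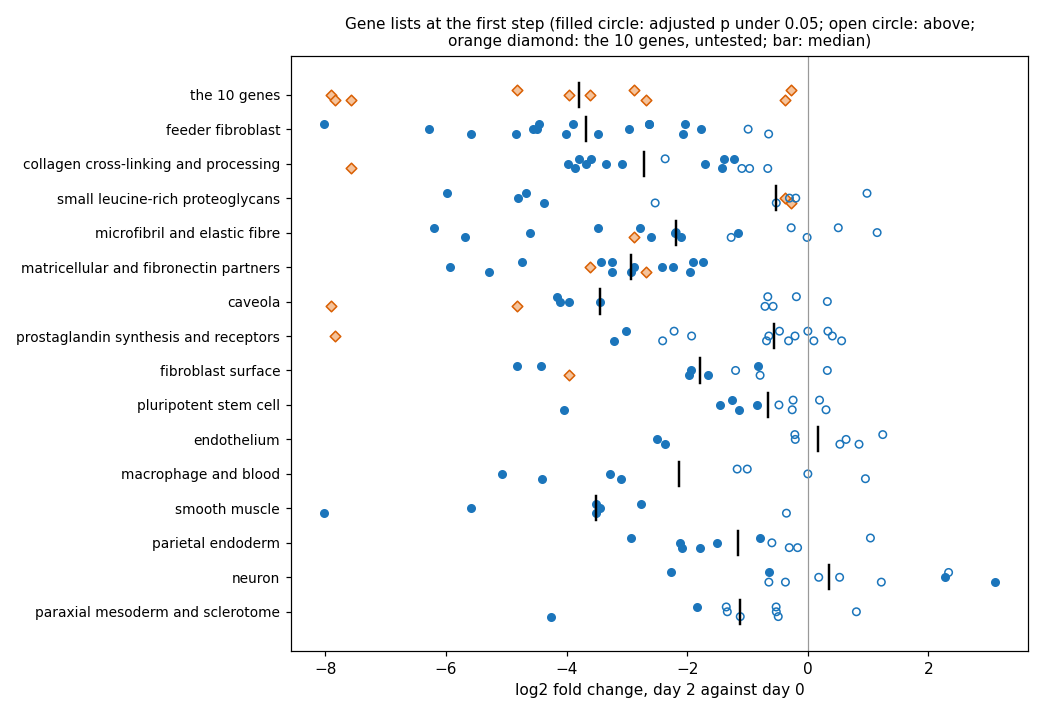
Change from day 0 to day 2 (log2) of each gene in the fixed lists, with filled circles for genes past limma's threshold, open circles for the others, orange diamonds for the 10 genes, which are not tested here, and a bar at each list's median with the 10 genes included. Dcn and Lum sit near 0 in the row of small proteoglycans, where Aspn, Ogn and Bgn lie between -4.67 and -5.99. Prelp (-0.52), Omd (-0.31) and Chad (-0.20), genes with few reads, lie near 0 in that row too, and Kera is at 0.98.

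Genes of other cell types moved in the same libraries. Of 10 pluripotent stem cell genes 5 fell and 0 rose (median -0.66), and their summed level (log2) went from 13.88 and 13.69 on day 0 to 13.32 and 13.16 on day 2. Klf4 fell by 4.04, while Pou5f1 (-0.26) and Nanog (-0.48) did not pass. In the macrophage and blood list 4 of 8 fell and 0 rose, and its summed level (log2) went from 9.43 and 9.37 on day 0 to 5.70 and 5.84 on day 2. Lyz2, a lysozyme of macrophages, fell by 4.41 from 9.12 and 8.98, and Adgre1, the F4/80 gene, fell by 5.08, with 1 day 2 library and all later ones listed at 0. Smooth muscle genes, which share Acta2 and Tagln with the feeder list, were 6 of 7 down (median -3.51), and their summed level went from 12.48 and 12.68 to 7.65 and 7.24. Parietal endoderm genes were 6 of 10 down (median -1.15), from 13.26 and 13.70 to 11.60 and 11.81. The endothelial list had 2 of 8 down (median 0.16), Emcn by 2.5 and Flt1 by 2.36, with Tie1 listed at 0 on day 0. Its summed level went from 8.28 and 8.47 to 8.40 and 8.01. Pecam1, a large part of that sum, went from 6.91 and 6.80 to 7.98 and 7.43 and did not pass. In the paraxial mesoderm and sclerotome list 2 of 9 fell (median -1.12), Foxc2 by 4.27 and Foxc1 by 1.84. Of 10 neuron genes 2 rose, Snap25 by 3.10 and Elavl4 by 2.27, and 2 fell, Gap43 by 2.27 and Stmn2 by 0.64 (median 0.35). The calls of Emcn, Foxc1, Snap25 and Stmn2 were lost without any 1 library of days 0, 2 or 4. The part of these cell types in the levels of the 10 genes was not tested.

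The second step sets day 4 against day 2, with changes taken from those libraries alone but with a spread that limma estimated over days 0, 2 and 4. Limma called 5 of the 10 genes lower and 0 higher, against 2.13% of all genes tested lower and 1.45% higher. The later days were also known when the genes were picked, so this count describes them and supports nothing further. Dcn, which had kept its level to day 2, fell by 3.53 (SE 0.39, adjusted p = 0.0124 by limma). Cav1 fell by 3.14 (SE 0.44, limma adjusted p = 0.0213) and Postn fell by 2.54 (SE 0.22, limma adjusted p = 0.00822). Lox fell by 1.79 (SE 0.33, limma adjusted p = 0.0436), to levels of 1 and 2 reads, and Fbn1 fell by 1.62 (SE 0.17, limma adjusted p = 0.0106). Without any 1 library of days 0, 2 or 4 all 5 calls were lost, with limma adjusted p from 0.0903 to 0.211, while the changes kept their direction. With the 2 days fitted alone Lox did not pass either (limma adjusted p = 0.187), and the other 4 did. Lum had a change of -2.97 that did not pass (limma adjusted p = 0.0976), and neither did Sdpr (-1.09), Fn1 (-0.56), Ptgs2 (-0.52) or Thy1 (0.40). Thy1 was at -0.33 without day 4 replicate 2, and Ptgs2 at 0.26 without day 2 replicate 2. In 8 of 10 genes both day 4 libraries were below both day 2 libraries, as in 22.0% of all genes, with Thy1 and Ptgs2 the exceptions. Among these 8, Sdpr went from 1 and 1 reads to 0 and 0, a difference below the level of 3 reads that cannot be read.

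As shares of the day 2 level, day 4 stood at 11.2% and 5.64% for Dcn in its libraries, 18.7% and 14% for Postn, 29.6% and 34.7% for Fbn1, 75% and 58.4% for Fn1 and 78.7% and 222% for Thy1. Cav1 was at 15.3% and 4.49%, on 4 and 2 reads. The shares of Lox (17.2% and 20.4%, on 1 and 2 reads) and Lum (23.7% and 0%, on 3 and 0 reads) rest on too few reads to be placed in this order. Xist kept 11% (fell by 3.08, SE 0.30, limma adjusted p = 0.00951, a call lost without any 1 library of days 0, 2 or 4). Over the 8 genes above the level of 3 reads on day 2, the median change was -2.16 and the SD between genes 1.36, beside a replicate SD of 0.60 on days 2 and 4. In the day 4 libraries taken singly, the SD between these genes was 0.97 and 1.84.

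Further feeder genes at the second step were 7 of 18 down and 1 up, with a median of -1.48 (0.00 over all genes). Col6a3 fell by 3.03 to 12.1% of its day 2 level, and Col5a2 fell by 2.90 to 12.3%. Vim, an intermediate filament of mesenchymal and neural precursor cells, rose by 1.80 (limma adjusted p = 0.0114). Acta2 read 4.23 and 3.22 at day 2, then 3.64 and 4.54 at day 4, and did not pass (0.37). Bgn fell by 2.51, to 16.5%, and Ogn was listed at 0 in both day 4 libraries. Loxl2 rose by 1.18 (limma adjusted p = 0.0249), where Loxl1, Loxl3 and Loxl4 did not pass, and Cyr61, a matricellular gene responsive to YAP, rose by 2.40. No further caveola gene passed, with Ptrf at -1.17 and Cav2 at -1.40. Other cell types moved at this step too, and their part in the changes of the 10 genes was not tested. Of 10 pluripotent stem cell genes 6 fell and 0 rose (median -1.16), with Zfp42 lowered most (-2.24), and 3 of 10 neuron genes rose (median 1.39). Of 8 macrophage and blood genes 1 fell (median -0.27), and 0 of 7 smooth muscle genes passed (median 0.27). All of these calls were also lost without any 1 library of days 0, 2 or 4.

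**Figure D4:**
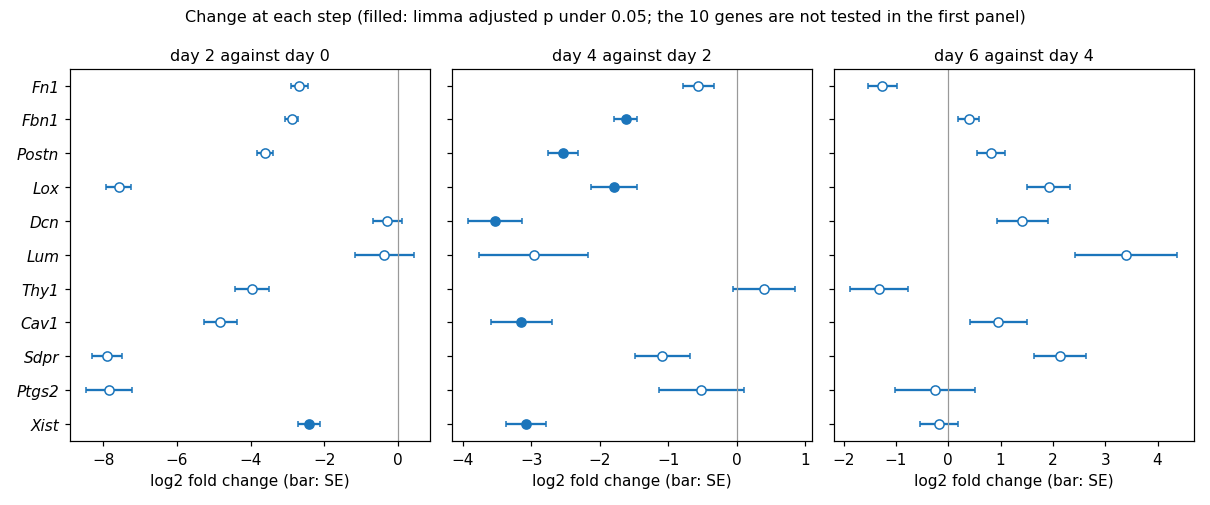
Change of each gene at the 3 steps (log2, bars are SE from limma), and Xist in the last row. Filled points are past limma's threshold, and the 10 genes are drawn open and untested in the first panel. Dcn moves from near 0 in the first panel to -3.53 in the second, and Lox from -7.58 to -1.79.

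At the third step, day 6 against day 4, limma called 0 of the 10 genes (4.46% of all genes tested passed, 1.27% upward and 3.18% downward). Unadjusted, 6 of the 10 had p under 0.05 by limma, as did 5513 of the 21813 genes tested. The day 6 library has no replicate and is assumed to vary like the others. Lum went from 2.30 and 0 to 4.55 (log2 3.40, limma adjusted p = 0.0965), Sdpr from 0 and 0 to 2.14, Lox from 1.20 and 1.34 to 3.19 (log2 1.92, limma adjusted p = 0.053) and Dcn from 3.98 and 3.08 to 4.95 (log2 1.42). Fn1 went the other way, from 10.91 and 10.55 to 9.47 (log2 -1.26, limma adjusted p = 0.0554). In 7 of the 10 genes the day 6 library was above both day 4 libraries, as in 38.0% of all genes, and in Fn1 and Thy1 it was below both, as in 29.1%. When genes with low values were left out before the fit, Lox, Lum and Sdpr passed upward and Fn1 downward. That fit called 1955 of 15767 genes. Sdpr met its filter only with the day 0 libraries counted, and its rise was from 0 and 0 reads to 3. With a filter on the mean level, which Lum and Sdpr did not meet, only Lox and Fn1 passed. Lox met that filter only with the day 0 libraries counted, and its rise was from 1 and 2 reads to 7. Among the fixed feeder genes Prrx1, a mesenchymal homeobox gene, rose by 2.57 (limma adjusted p = 0.0443) and Col5a2 rose by 1.88 (limma adjusted p = 0.0316), both lost without any 1 library of days 0, 2 or 4 (limma adjusted p from 0.0527 to 0.222).

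Set against day 0, the day 4 libraries were below both day 0 libraries for 10 of the 10 genes, as for 26.9% of all genes. Shares left on day 4 were 10.6% for Fn1, 9.39% for Thy1, 8.55% for Lum, 6.62% for Dcn, 4.36% for Fbn1, 1.32% for Postn, 0.34% for Cav1, 0.201% for Ptgs2 and 0.0891% for Lox, with Sdpr listed at 0. Dcn had thus moved from the top of the order on day 2 to the range of Fn1, Thy1 and Fbn1. Lum, with 3 and 0 reads in the day 4 libraries, cannot be placed in this order. The shares of Cav1 (4 and 2 reads), Ptgs2 (2 and 1) and Lox (1 and 2) rest on few reads as well.

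Over the 7 libraries the course of each gene was set against the mean of the 10, which includes the gene itself. Pearson's r was lowest for Lum (0.609), then Dcn (0.776) and Thy1 (0.884), while the other 7 lay between 0.929 and 0.99. These values describe 7 libraries of which replicates share a day. The genes were picked for their loss after day 0, so high values are largely built in. Among 10995 other genes the most alike in course were Mpp1 (r = 0.998), Igfbp7 (0.996), Timp2 (0.996), Tgfbr2 (0.996), Itgb3 (0.996), Bgn (0.995), Klf4 (0.995) and Pcdh19 (0.995). They differed in size, from -1.12 (Mpp1) to -5.99 (Bgn) at the first step.

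By position on GRCm38, Lox lies on chromosome 18 (52516067 to 52529867, minus strand), Postn on 3 (54361109 to 54391037, plus), Thy1 on 9 (44043384 to 44048579, plus) and Fbn1 on 2 (125300594 to 125507993, minus). Fn1 (71585520 to 71653200, minus), Sdpr (51289126 to 51302960, plus) and Ptgs2 (150100031 to 150108227, plus) are on chromosome 1, and Cav1 is on 6 (17306335 to 17341452, plus). All 10 are protein-coding. A gene annotated on the opposite strand overlaps Lox, Fbn1, Fn1, Sdpr and Cav1, and their reads cannot be told apart from its own where the counting did not use strand.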

How the data were processed

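The study sequenced polyadenylated RNA from 7 libraries by a stranded kit for mRNA, per the labels' protocols. The authors deposited 1 table of 30590 rows and 7 value columns, with 0 columns left unmapped. In 1 column name a letter O stands for the zero of the label of day 0 replicate 2. From their steps, the values the authors deposited were read as the natural log of 1 plus scaled reads, a unit inferred here. Low values lie in steps of whole reads, the 4-read step was 0.978 to 1.12 times the natural-log prediction from the 2-read step, and the sorted columns agree within 0.01 over 9896 ranks, as after quantile normalization. Per the submitters' processing notes the genome was GRCm38, and the sources used here do not name the aligner, the counter or whether strand was used. Read numbers are estimates from these steps, and totals are rough.

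Values were divided by the natural log of 2. Rows of foreign sequence (103) and genes at 0 everywhere (8674) were left out, and 21813 genes were tested with limma-trend (limma 3.58.1, R 4.3.3, robust, 7 libraries, 1 mean per day, 3 residual degrees of freedom, Benjamini-Hochberg, threshold 0.05). The script was tested on simulated data. The labels call the replicates biological, and p-values measure only the spread between them. An exact 0 can be a failed estimate, so such genes are called listed at 0. Shares are scaled reads over the day 0 mean. All 10 genes passed a filter of 3 reads in at least 2 libraries, 8 of them a mean of at least 11 on the scale of 1 plus scaled reads. The genes and lists were chosen with earlier results of these data known. Named are the 10 genes, Xist, Col1a1, Acta2, Pou5f1, the largest changes of each list and the 8 genes most alike in course (Pearson r of centred levels), and further list members were named after their values were seen. Promoters and positions are from RefSeq and GENCODE on GRCm38. Alternatives were other filters, centring, moderation without robustness or trend, a replicate block, fits of 2 days alone, and leaving out each library.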

Additional observations from a re-analysis of the deposited data

How the results depend on the processing

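The number of genes limma called depended on the filter and on single libraries. At day 4 against day 2 (782 genes) it was 1526 with the low-value filter, 1422 with the mean-level filter, 172 without robust moderation and 168 without a mean-variance trend. At day 6 against day 4 (972) it was 1955, 2200 and 27 with the low-value filter, the mean-level filter and no trend, and at day 2 against day 0 (2609) it was 1419 with no trend. Without 1 library in turn the counts were 0 to 0 (3511 to 5139 genes with an unadjusted p under 0.05), 0 to 295, 0 to 691 and, for day 4 against day 0 (4731), 163 to 4152. The cause was not tested. The 5 genes lower at the second step became 6 with the low-value filter, 2 without robust moderation and 1 without a trend.

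Same-numbered replicates did not deviate together on every pair of days (r = -0.0582, -0.0662 and 0.222 over 11800 genes). These values cannot settle whether the numbers pair the samples. The column names of same-numbered replicates share a code across days, and the main fit took no account of pairing. With the replicate number as a block the counts were 568, 606, 2243 and 4295 for day 4 against 2, 6 against 4, 2 against 0 and 4 against 0, and of the 5 genes Lox did not pass.

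The ratio of the Dcn share to the lowest share was 126 to 244 without a day 0 library and 356 with Sdpr and Ptgs2 included, an alternative chosen after seeing the data. The median first-step difference ran from -3.79 to -3.78 without a day 0 library and was -3.82 without the added 1. Some changes turned sign when 1 library in turn was left out. At day 4 against day 2, Ptgs2 ran from -1.29 to 0.26, Thy1 from -0.33 to 1.13 and Acta2 from -0.14 to 0.87, with -0.08 without day 4 replicate 2. At day 6 against day 4, Ptgs2 ran from -0.73 to 0.24 and Xist from -0.40 to 0.035. At day 2 against day 0, Dcn ran from -0.69 to 0.11 and Lum from -0.89 to 0.14. Alternatives for counts or linear values were not used. Depth limits Lox, Sdpr, Ptgs2 and Lum after day 0, where few reads remain.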
